A study of Mus musculus with 12 samples.

Results

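This account concerns 36 cell cycle and DNA replication genes in mouse CD8+ T cells, namely 15 genes of S phase (the Mcm2 to Mcm7 helicase subunits, Pcna, Rrm2, Tyms, Tk1, Ccne1, Ccne2, E2f1, Cdc6 and Cdc45) and 21 genes of mitosis (Mki67, Top2a, Ccnb1, Ccnb2, Ccna2, Cdk1, Birc5, Bub1, Bub1b, Aurka, Aurkb, Plk1, Cdc20, Cenpe, Cenpf, Ube2c, Nusap1, Kif20a, Kif2c, Tpx2 and Hmmr). They were taken by name, whatever their values. A gene was kept if the scanner software called a probe of it well above background on 2 or more arrays, and its brightest such probe stood for it. That left 34 of the 36, or 14 S-phase and 20 mitotic genes, among 13882 named genes and 25738 features in all. Ccne2 and Kif2c were not well above background on any array and are not described further.

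The study measured gene expression with 12 Agilent 1-colour arrays, each carrying RNA of CD8+ T cells of female C57BL/6 mice. Total CD8+ T cells were taken from peripheral lymph nodes (PLN) and from mesenteric lymph nodes (MLN), the nodes of the gut. WT mice gave 2 PLN and 2 MLN arrays, and AID KO and uMT mice gave 1 PLN and 1 MLN array each. Naive cells, defined by low CD44, came from PLN of AID KO and uMT mice and were sorted into a Sca1p and a Sca1m fraction (read here as positive and negative for the surface protein Sca-1), with 1 array for each genotype and fraction. The uMT mutation removes mature B cells, and the sources used here describe neither the AID KO allele nor the ages of the mice. On the arrays labelled AID KO the probe of the targeted gene was not lower but higher than on the other arrays. The place of that probe relative to the altered part of the gene is not given in the sources used here, so it does not check the label, and every AID KO value and direction here refers to arrays carrying that label. No naive WT array was analysed here. The labels do not say that arrays came from separate animals, and the submitters describe a design with no replicates, so a p-value here measures only the spread of the arrays around the fitted terms, which may be technical. The 8 total-cell arrays filled slides 1 and 2, each with PLN and MLN arrays of WT and of knockouts, and the 4 naive arrays filled slide 3.

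Cells that commit to divide first express genes that load and fire the replication machinery, and E2F factors drive many of these. Genes of mitosis follow later, through CCAAT boxes and a cell cycle homology region (CHR). The CHR is read by the DREAM complex, which holds these genes silent in resting cells. Naive T cells rest outside the cycle, whereas total CD8+ T cells of a lymph node also contain memory cells and cells that have recently met antigen. Arrays of bulk RNA cannot tell a smaller share of cycling cells from less RNA in each cell.

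The promoter letters of 8 members are printed as examples of the words counted over all windows in the next paragraph. The 3 S-phase examples were picked among the windows with an E2F word, which most S-phase windows lack, and these words occur in both groups. They come from RefSeq (GRCm38.p6), cover the 170 bases before the start of the gene on its own strand, and are written 5′ to 3′. Capitals mark the words TTTCCCGC, TTTCGCGC, TTTGCCGC and TTTGGCGC (E2F), TTTGAA and TTTAAA (CHR) and CCAAT, on either strand, and neighbouring matches run together where they overlap. Mcm5 lies at chr8:75109339-75109508 (plus strand), Mcm6 at chr1:128359706-128359875 (minus), Cdc6 at chr11:98907981-98908150 (plus), Mki67 at chr7:135716380-135716549 (minus), Top2a at chr11:99024190-99024359 (minus), Ccnb1 at chr13:100786487-100786656 (minus), Cdk1 at chr10:69352913-69353082 (minus) and Ube2c at chr2:164769759-164769928 (plus).
Mcm5: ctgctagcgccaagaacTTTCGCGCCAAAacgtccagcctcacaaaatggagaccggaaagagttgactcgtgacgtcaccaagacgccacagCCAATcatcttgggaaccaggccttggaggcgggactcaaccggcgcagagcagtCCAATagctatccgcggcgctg
Mcm6: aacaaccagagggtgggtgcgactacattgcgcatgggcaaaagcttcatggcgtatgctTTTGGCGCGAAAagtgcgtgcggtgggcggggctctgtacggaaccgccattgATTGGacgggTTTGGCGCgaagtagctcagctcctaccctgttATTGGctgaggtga
Cdc6: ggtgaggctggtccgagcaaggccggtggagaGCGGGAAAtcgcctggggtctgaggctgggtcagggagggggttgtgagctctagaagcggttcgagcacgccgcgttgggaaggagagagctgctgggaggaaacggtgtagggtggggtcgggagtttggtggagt
Mki67: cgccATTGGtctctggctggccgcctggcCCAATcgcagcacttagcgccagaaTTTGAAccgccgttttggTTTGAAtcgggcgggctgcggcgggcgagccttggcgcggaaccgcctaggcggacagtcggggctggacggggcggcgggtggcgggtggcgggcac
Top2a: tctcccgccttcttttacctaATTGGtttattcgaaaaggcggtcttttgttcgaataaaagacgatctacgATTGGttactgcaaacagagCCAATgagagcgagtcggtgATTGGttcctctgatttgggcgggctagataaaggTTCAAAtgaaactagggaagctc
Ccnb1: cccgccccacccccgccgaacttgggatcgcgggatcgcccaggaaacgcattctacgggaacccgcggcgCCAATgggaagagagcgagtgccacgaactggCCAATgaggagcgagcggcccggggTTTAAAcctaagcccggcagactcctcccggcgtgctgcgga
Cdk1: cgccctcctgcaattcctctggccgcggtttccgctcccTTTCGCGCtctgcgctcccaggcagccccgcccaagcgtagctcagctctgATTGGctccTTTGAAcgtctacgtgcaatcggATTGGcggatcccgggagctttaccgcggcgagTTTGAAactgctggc
Ube2c: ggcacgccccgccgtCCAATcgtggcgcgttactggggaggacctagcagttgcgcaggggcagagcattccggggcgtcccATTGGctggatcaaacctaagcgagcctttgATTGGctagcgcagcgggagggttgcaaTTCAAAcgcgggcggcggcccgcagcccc

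Of the 36 members, 30 had a promoter in the RefSeq table, in 31 windows that run from 250 bases before the start to 50 after it. An E2F word stood in 5 of 14 S-phase windows (Cdc6, Mcm3, Mcm5, Mcm6 and Mcm7) and in 1 of 17 mitotic windows (Cdk1), against 2.26% of all 32851 promoter windows. A CHR word stood in 15 of 17 mitotic and 6 of 14 S-phase windows, against 27.6% of all. CCAAT stood in 14 of 17 and 9 of 14, against 37.4%, and both CCAAT and CHR stood in 13 of 17 and 4 of 14, against 10.7%. The windows of both groups were richer in G and C (medians 57.5% for S-phase and 57.7% for mitotic members) than all windows (52.7%). A match describes letters in the window and does not show a bound site.

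All levels below are log2 processed intensities minus the 75th percentile of the same array, so a value of 0 equals that percentile, and a difference between groups is a difference of such levels. Levels were not compared between genes, because probes differ in brightness. The 75th percentile ranged from 431.5 to 786.9 intensity units, 50.1% to 56.8% of spots exceeded background, and 0 spots were saturated. The repeat WT arrays correlated across features at 0.987 (PLN) and 0.981 (MLN). All 12 genes on the list of CD8 T cell identity were well above background on every array, and Cd8a lay between 4.68 and 5.33. The sorts also showed in the data. Cd44 lay between -0.14 and 0.79 in total cells and between -2.07 and -1.31 in naive cells, and Ly6a, which encodes Sca-1, was at 3.87 and 3.40 in the Sca1p arrays and at 0.03 and -0.10 in the Sca1m arrays.

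Total CD8+ T cells carried more RNA of mitotic genes than naive cells. Among the 11 mitotic members that were well above background on all 12 arrays, 9 had every total-cell value above every naive value, with a median difference of 1.36 over the 11. Among the 13 such S-phase members 7 did, with a median of 0.41, and over all 19631 features well above background on every array 11.4% did, with a median of 0.029. Total and naive arrays stand on different slides, so cell population and slide cannot be told apart and no test was made. Over all kept members, some of which passed the filter only through the total-cell arrays, the counts were 18 of 20 and 7 of 14 beside 10.2% of features, and 0 members lay lower without overlap beside 11% of features.

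Mki67, which encodes the Ki-67 protein of dividing cells, ranged from -0.67 to 0.31 with a median of -0.15 over the 8 total-cell arrays. In naive cells it was at -2.52 and -2.66 (Sca1p and Sca1m, AID KO) and at -3.11 and -2.47 (Sca1p and Sca1m, uMT). The sets were far apart, with a mean difference equal to 5.93-fold. Top2a, the topoisomerase that untangles replicated chromosomes, ranged from -1.03 to 0.19 with a median of -0.48 in total cells. Its naive values, in the same order, were -2.46, -2.45, -2.54 and -2.34. These naive arrays lay close together, and the total cells were 4.20-fold higher.

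The cyclins of mitosis, which activate Cdk1, were apart as well. Ccnb2 ranged from -0.90 to -0.20 (median -0.55) in total cells and was at -3.08, -3.01, -2.92 and -2.74 in naive cells, which is 5.35-fold. Ccnb1 ranged from -2.69 to -2.18 (median -2.52) and was at -4.28, -3.90, -3.56 and -3.87, which is 2.69-fold. No value of either cyclin overlapped. Birc5, which encodes survivin of the chromosomal passenger complex, ranged from 0.80 to 1.21 (median 0.97) and was at -1.91, -1.16, -1.55 and -1.14, so that total cells were 5.29-fold higher. Cenpe, a motor protein of the kinetochore, was 2.56-fold higher, Kif20a, a motor of cytokinesis, 1.70-fold, Cdc20, an activator of the anaphase-promoting complex, 1.55-fold and Plk1, a kinase of mitotic entry, 1.33-fold, and none of these 4 overlapped.

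A further 9 mitotic members were not well above background on any naive array, and each can only be given a bound. They passed the filter only through the total-cell arrays, so their being higher there says little. The bound sets the mean of the total-cell arrays against the lowest signal called well above background on each naive array, or the probe's own signal where that was higher. Ccna2, the cyclin shared by S phase and mitosis, was at least 7.12-fold higher in total cells, where it ranged from -2.05 to -1.40. Ube2c, the ubiquitin-conjugating enzyme of the anaphase-promoting complex, was at least 4.11-fold higher, Nusap1, which binds spindle microtubules, at least 3.44-fold and Cenpf, a kinetochore protein, at least 3.01-fold. The bounds were at least 2.21-fold for Aurkb, the kinase of the passenger complex, at least 2.01-fold for the spindle factor Tpx2, at least 1.29-fold and 1.27-fold for the checkpoint genes Bub1b and Bub1, and at least 1.14-fold for Cdk1. Cdk1 was also not well above background on 1 total-cell array, WT PLN replicate 2. With only the AID KO and uMT PLN arrays as total cells, the bounds ran from 0.995-fold (Bub1) to 6.43-fold (Ccna2). The Bub1 bound then shows no difference.

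Aurka and Hmmr were the exceptions among mitotic members. Aurka, the centrosomal Aurora kinase, ranged from -0.03 to 0.56 (median 0.40) in total cells and was at 0.14, 0.34, 0.29 and 0.44 in naive cells. Hmmr, a spindle and hyaluronan-binding protein, ranged from -1.27 to -0.40 (median -0.90) and was at -1.28, -0.96, -0.57 and -1.07. In both genes the ranges overlapped, although the lowest Hmmr value was a naive one, and the folds were 1.00 and 1.08. Both promoters held CCAAT and CHR words, as those of Mki67 and Top2a did. For Hmmr the overlap is that of its brightest probe, with a log2 difference of 0.11. Its dimmer probes were well above background on 1 and 2 total-cell arrays and on 0 naive arrays. In these, total cells were 0.93 and 1.17 above naive cells on the log2 scale.

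**Figure D1:**
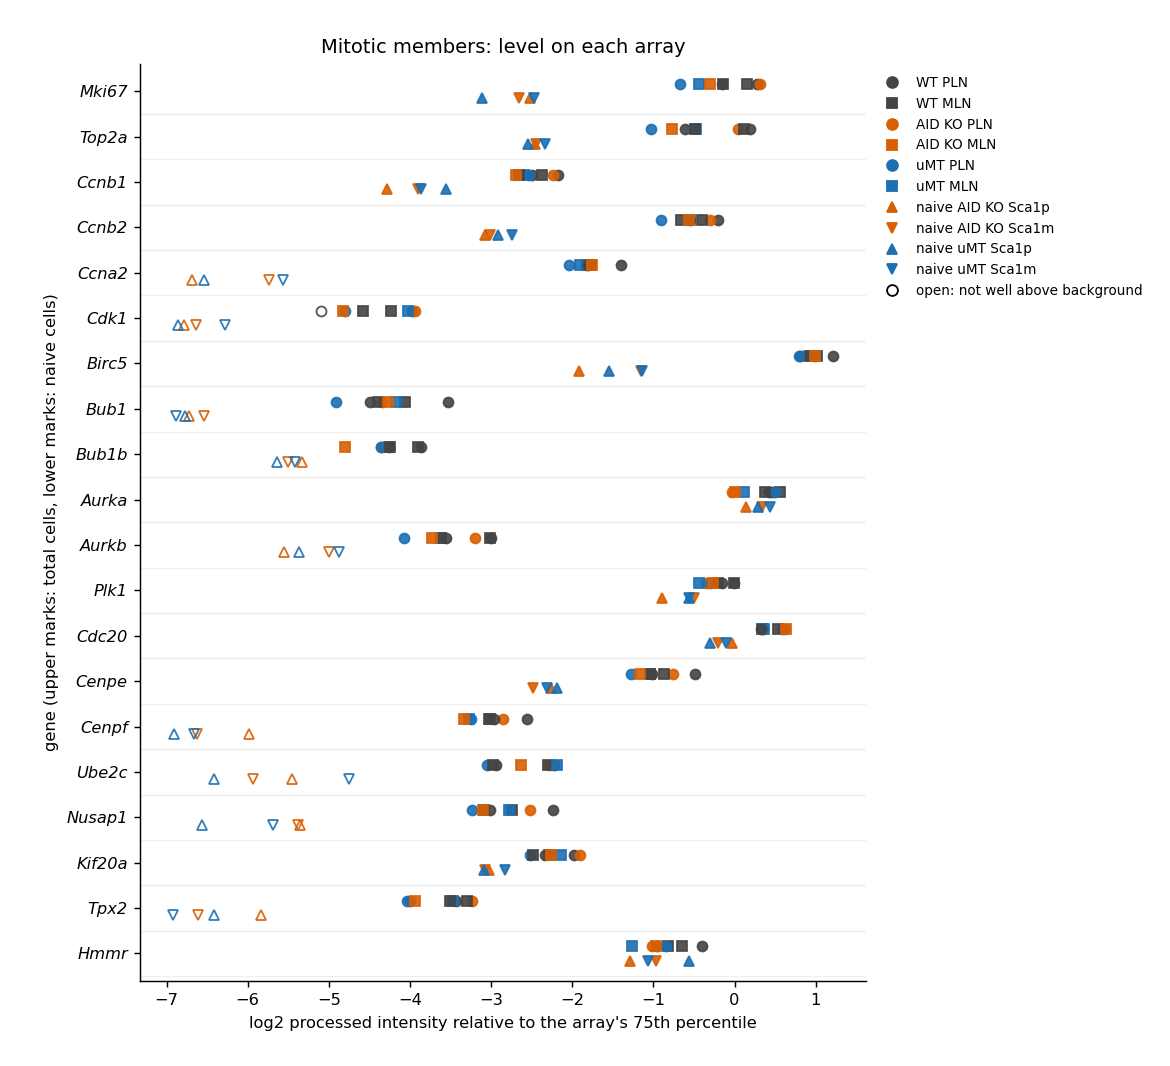
Level of each of the 20 kept mitotic members on every array (log2 processed intensity minus the array's 75th percentile), with total cells as the upper and naive cells as the lower marks of each gene, and open marks where the probe was not well above background. In 18 genes, beside 10.2% of all features, all total-cell marks lie to the right of all naive marks, while Aurka and Hmmr overlap. Of these 18, 9 were kept only through the total-cell arrays, so their lack of overlap says little.

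Of the S-phase members, 7 were higher in total cells without overlap, beside 10.2% of all features, and 7 overlapped. The widest gaps were in the enzymes of nucleotide supply. Tk1, thymidine kinase, ranged from -1.37 to -1.13 (median -1.27) in total cells and was at -3.47, -3.61, -3.01 and -3.25 in naive cells, which is 4.17-fold. Rrm2, the regulated subunit of ribonucleotide reductase, ranged from -0.18 to 0.57 (median 0.27) and was at -2.03, -1.71, -1.89 and -1.53, which is 4.02-fold. Tyms, thymidylate synthase, ranged from 0.28 to 0.52 (median 0.37) and was at -0.73, -0.53, -0.80 and -0.46, which is 2.02-fold. In all 3 enzymes a gap separated the lowest total-cell array from the highest naive array.

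Helicase subunits and regulators differed less. Mcm3, Mcm6 and Mcm4, subunits of the replicative helicase, were 1.52-fold, 1.42-fold and 1.33-fold higher in total cells without overlap, and Ccne1, the cyclin of S-phase entry, was 1.29-fold higher without overlap. Mcm2, Mcm5 and Mcm7 overlapped between the populations, although they belong to the same helicase ring, with folds of 1.03, 1.08 and 1.21. In Mcm7 the overlap was narrow, with a lowest total-cell value of 2.83 and a highest naive value of 2.84. Pcna, the sliding clamp of the polymerases, ranged from 4.25 to 4.72 in total cells and was at 4.59, 4.27, 4.42 and 4.72 in naive cells, so its ranges coincided. E2f1, an activating E2F factor, ranged from -2.21 to -1.33 (median -1.72) and was at -2.15, -2.47, -2.21 and -2.18. Its ranges overlapped, with a fold of 1.47. The helicase loader Cdc6 ranged from -2.85 to -1.37 (median -1.92) and was at -1.87, -1.94, -1.47 and -1.62, with naive values in the upper part of the total-cell range. Its second probe, dimmer and well above background on 2 naive arrays, went the other way, with total cells 0.63 above naive cells on the log2 scale against -0.28 for the probe used. Cdc45, a helicase cofactor, was well above background on 6 total-cell arrays and 1 naive array, and its levels overlapped. Its total-cell mean was 0.70 above the naive mean and included a highest value of -2.08 in WT MLN replicate 1. Its second probe, well above background on 7 total-cell and 0 naive arrays, differed by 1.34.

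**Figure D2:**
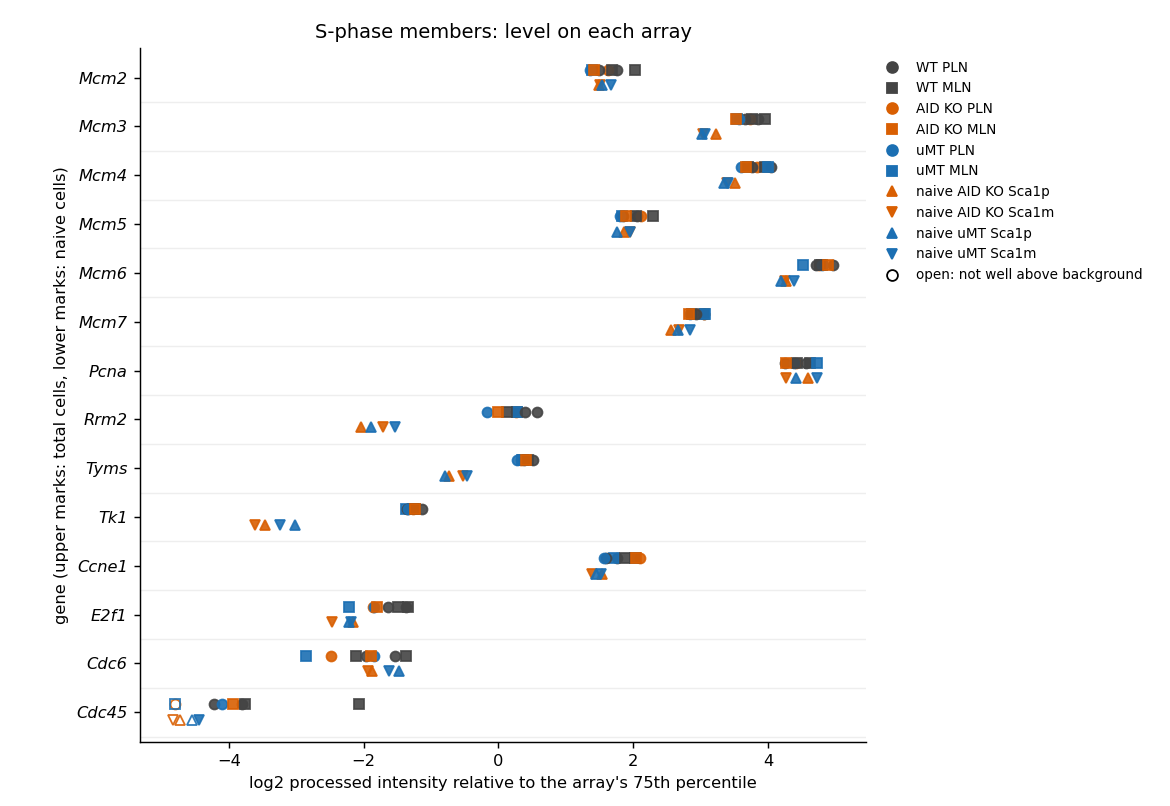
Level of each of the 14 kept S-phase members on every array (log2 processed intensity minus the array's 75th percentile), with total cells as the upper and naive cells as the lower marks and open marks where the probe was not well above background. Tk1, Rrm2 and Tyms are clearly apart, Mcm3, Mcm4, Mcm6 and Ccne1 are apart by less, and the other 7 overlap. Over all features, 10.2% were higher in total cells without overlap.

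The AID KO and uMT total-cell arrays from PLN match the naive arrays in node and genotype. With these 2 arrays against the 4 naive arrays, and over members well above background on all 12 arrays, 9 of 11 mitotic and 9 of 13 S-phase members were higher without overlap, beside 24.7% of such features. The median differences were 1.30 and 0.37, beside 0.032. Further pathway genes, on lists drawn up with earlier results of these data known, are given for all 8 total-cell arrays against the naive arrays and over genes well above background on all 12, where 11.4% of features were higher and 11.7% lower. Of 37 other replication genes 17 were higher without overlap and 4 lower, and of 30 other mitotic genes 17 were higher and 1 lower. Of 9 drivers of G1 2 were higher and 0 lower, and of 16 brakes of the cell cycle 3 were higher and 2 lower.

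Some markers of other cells also differed between the populations. The counts here cover all kept genes, beside 10.2% of features higher and 11% lower without overlap. Genes not well above background in naive cells were kept only through the total-cell arrays, so their lack of overlap says little. Effector and memory genes were higher in total cells without overlap in 8 of 14, with a summed level (the sum of the unlogged levels) of 98.1 to 128 against 43.8 to 48.6 in naive cells, where Klrg1 and Cx3cr1 were not well above background. Of 7 NK cell genes 5 were higher, namely Klrb1c, Klra8, Klra4, Klre1 and Tyrobp, none of them well above background in naive cells, and the summed level was 75.5 to 90.1 against 75.9 to 86.2. Of 8 genes of macrophages, monocytes and dendritic cells 1 was higher and 2 were lower, with a summed level of 52.4 to 135 against 253 to 279, while Lyz2, Adgre1, Flt3 and Xcr1 were not kept. The total-cell sums of this list split by slide, at 52.4 to 64.8 on slide 1 and 118 to 135 on slide 2. Of 6 erythroid genes 1 was higher and 1 lower, with a summed level of 49.9 to 68.1 against 37.8 to 47.2. CD4 T cell genes were higher in 3 of 7 and lower in 1, with a summed level of 11.1 to 17.6 against 9.87 to 15.8. B cell genes were higher in 0 of 8 and lower in 1, Ms4a1 was not kept, and their summed level was 4.52 to 7.16 against 4.78 to 7.22. Naive T cell genes were higher in 1 and lower in 1 of 10, genes of CD8 T cell identity higher in 2 and lower in 5 of 12, germinal centre and plasma cell genes neither in 6, neutrophil genes lower in 1 of 5, and stroma and endothelium genes neither in 3. Over genes well above background on all 12 arrays, 7 of 11 effector and memory genes were higher, beside 11.4% of such features. So were 0 of 1 NK cell, 1 of 5 CD4 T cell and 1 of 4 erythroid genes. Of 4 such genes of macrophages, monocytes and dendritic cells 0 were higher. The part of these markers in the difference of the cell cycle genes was not tested.

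In total cells the comparison of each knockout with WT asks whether proliferation genes of CD8+ T cells differ in mice that lack mature B cells (uMT) or are labelled AID KO. In arrays labelled AID KO, 12 of 14 S-phase and 15 of 20 mitotic members were below WT, with median differences of -0.12 and -0.07, but 0 of the 34 members passed at an adjusted p of 0.05 (limma, Benjamini-Hochberg over all features), beside 0.894% of features. At an unadjusted p under 0.05 there were 4 of the 34, beside 14.4% of features. In uMT arrays 13 of 14 and 18 of 20 were below WT, with medians of -0.21 and -0.25, and 0 passed beside 0.035% of features. There 8 of the 34, all lower, had an unadjusted p under 0.05 beside 17.8% of features. The median over all features was 0.0093 for AID KO and -0.0041 for uMT. Without 1 array the AID KO mitotic median lay between -0.148 (without AID KO MLN) and -0.034 (without WT PLN replicate 1), and the uMT S-phase median between -0.320 (without uMT PLN) and -0.082 (without uMT MLN).

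Mki67 was at 0.27 and -0.15 in WT PLN (replicates 1 and 2), at 0.16 and -0.14 in WT MLN, at 0.31 and -0.30 in AID KO (PLN and MLN), and at -0.67 and -0.44 in uMT. Both uMT values lay below all WT and AID KO values. The fitted difference of uMT from WT was -0.59 ± 0.16 (SE; adjusted p = 0.187 by limma). Top2a was at 0.19 and -0.61 in WT PLN, at 0.12 and -0.49 in WT MLN, at 0.05 and -0.77 in AID KO and at -1.03 and -0.47 in uMT. In every genotype the arrays of slide 1 were above those of slide 2, and on each slide uMT was the lowest. With slide in the fit, uMT differed from WT by -0.55 ± 0.10 (adjusted p = 0.116).

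Aurkb had the lowest adjusted p of the members against WT. It was at -3.00 and -3.56 in WT PLN, at -3.01 and -3.62 in WT MLN, at -3.21 and -3.73 in AID KO and at -4.08 and -3.62 in uMT, and on each slide the uMT array was the lowest of the 4. The difference of uMT from WT was -0.55 ± 0.08 (adjusted p = 0.0928) and that from AID KO -0.38 ± 0.09 (adjusted p = 0.201). The naive arrays, where Aurkb was not well above background, also enter the spread in these tests. Among S-phase members Cdc6 was lower than WT in both knockouts, by -0.60 ± 0.12 in uMT (adjusted p = 0.136) and by -0.44 ± 0.12 in AID KO (adjusted p = 0.187). E2f1 differed by -0.57 ± 0.16 in uMT (adjusted p = 0.187) and by -0.38 ± 0.16 in AID KO (adjusted p = 0.359), and Mcm2 by -0.37 ± 0.12 in uMT (adjusted p = 0.217). The uMT differences of all 3 were larger without uMT PLN (Cdc6 -0.816, E2f1 -0.906 and Mcm2 -0.624) and smaller without uMT MLN (-0.380, -0.237 and -0.123).

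In arrays labelled AID KO the largest differences among members well above background on all total-cell arrays were those of Bub1b, Aurka and Hmmr (mitotic) and of Cdc6, E2f1 and Ccne1 (S-phase). Bub1b, a kinase-like protein of the spindle checkpoint, was at -3.87 and -4.26 in WT PLN, at -3.91 and -4.25 in WT MLN, and at -4.35 and -4.80 in AID KO. On each slide the AID KO array lay below both WT arrays, and the difference was -0.51 ± 0.11 (adjusted p = 0.111). Aurka was at 0.47 and 0.42 in WT PLN, at 0.56 and 0.38 in WT MLN and at -0.03 and 0.01 in AID KO, which did not overlap WT, with a difference of -0.47 ± 0.12 (adjusted p = 0.174). Hmmr differed by -0.29 ± 0.18 (adjusted p = 0.573), and by 0.11 with the mean of its probes in place of the brightest. Ccne1 was higher by 0.26 ± 0.10 (adjusted p = 0.347), at 2.11 and 2.04 against 1.76, 1.60, 2.02 and 1.88 in WT.

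Between the knockouts, uMT lay below AID KO in 11 of 14 S-phase and 18 of 20 mitotic members, with medians of -0.09 and -0.17 beside -0.0095 over all features. The number that passed was 0 of 34, beside 0.315% of features, and 5 of 34 had an unadjusted p under 0.05, beside 12.3% of features. The differences were -0.56 ± 0.19 for Mki67 (adjusted p = 0.324), -0.39 ± 0.11 for Top2a (adjusted p = 0.263) and -0.43 ± 0.12 for Ccne1 (adjusted p = 0.259). Pcna differed by 0.21 ± 0.16 (adjusted p = 0.652) and E2f1 by -0.20 ± 0.18 (adjusted p = 0.731), which became 0.138 without uMT MLN. The S-phase median was 0.019 in the highest and -0.289 in the lowest case when 1 array was left out, the latter without uMT PLN.

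Each knockout array can also be set against the WT array of its node on the same slide, which gives 4 pairs. All 4 differences were below 0 in 6 of 14 S-phase members (Mcm2, Mcm3, Tyms, E2f1, Cdc6 and Cdc45) and in 9 of 20 mitotic members (Top2a, Ccnb1, Bub1b, Aurkb, Plk1, Cenpe, Cenpf, Nusap1 and Hmmr), beside 13% of features. All 4 were above 0 in 1 member, Cdc20, beside 13.5% of features. For mitotic members the medians in AID KO were -0.18 (PLN) and -0.08 (MLN) and in uMT -0.20 and -0.17. For S-phase members they were -0.17 and -0.14 in AID KO and -0.09 and -0.29 in uMT. Both AID KO pairs were below 0 in 11 of 14 and 10 of 20, beside 29.8%, and both uMT pairs in 8 of 14 and 15 of 20, beside 28.6%. The 4 pairs use 4 different WT arrays and share none. They do share slides, and the labels do not say that the arrays came from separate animals, so the pairs may not be independent.

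**Figure D3:**
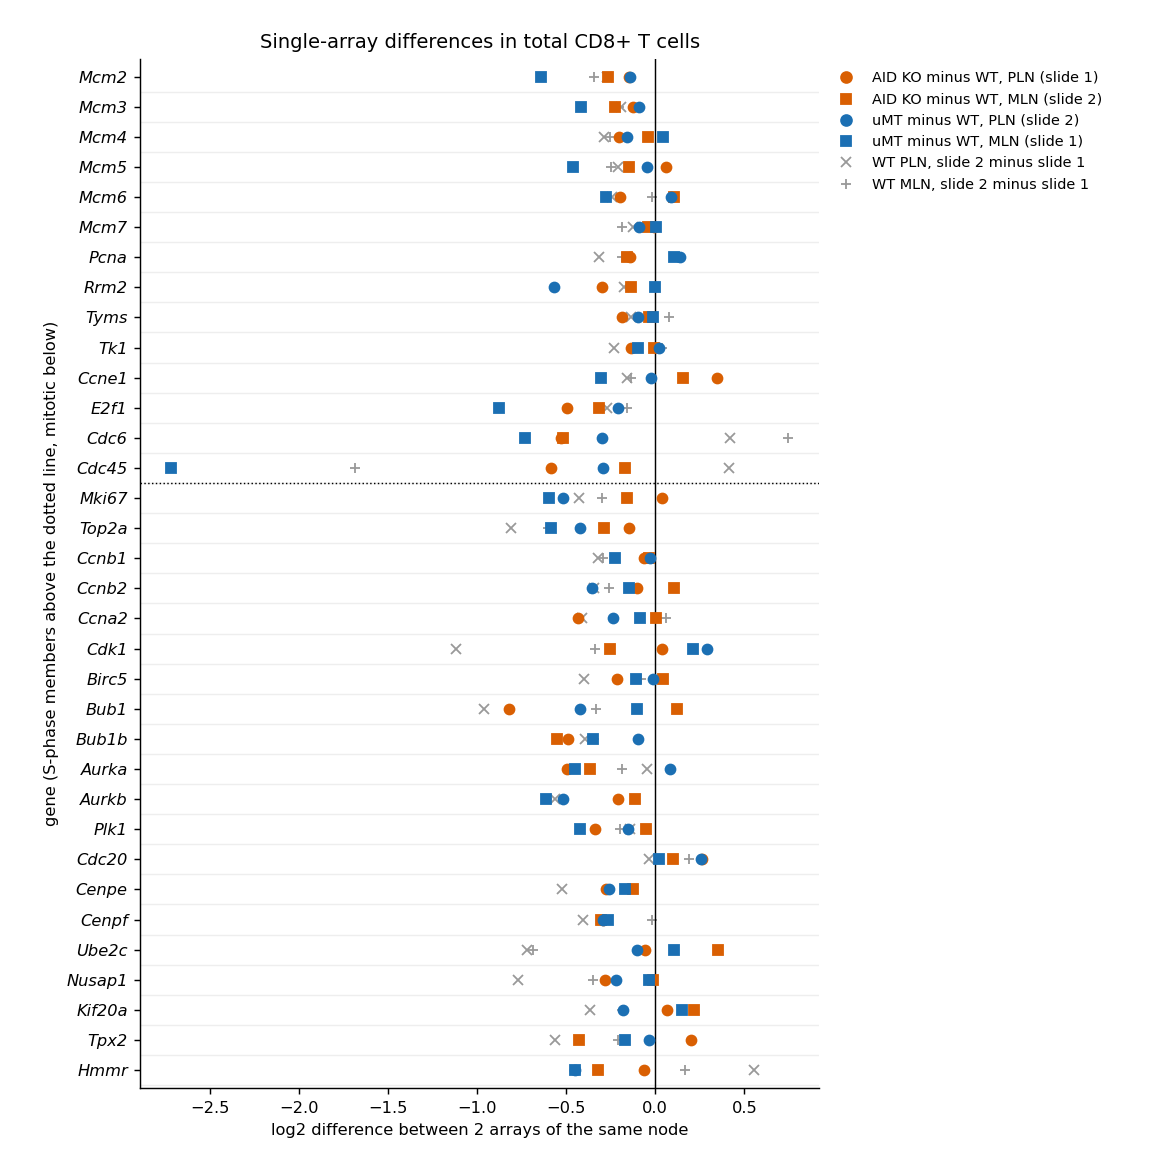
Difference of each knockout array from the WT array of the same node and slide (log2) for each kept member, 4 coloured marks a gene (orange AID KO, blue uMT, circles PLN, squares MLN), with grey crosses for WT replicate 2 minus replicate 1. Most coloured marks lie left of 0, with pair medians from -0.08 to -0.29 in the 2 groups of genes.

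In the mitotic medians and in Top2a, repeat WT arrays differed by as much as the same-slide genotype pairs did or more. WT replicate 2 (slide 2) lay below WT replicate 1 (slide 1) in 19 of 20 mitotic members in PLN and in 17 of 20 in MLN, with medians of -0.41 and -0.23, while the medians over all features were 0.089 and 0.096. S-phase medians were -0.20 and -0.17. Top2a differed between the WT repeats by -0.81 (PLN) and -0.60 (MLN), against -0.42 and -0.59 between uMT and its same-slide WT array. The fitted slide difference was -0.32 at the median of the mitotic members, -0.13 at that of the S-phase members and 0.10 over all features. Whether slide or the cells of these samples carried this difference cannot be told apart.

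Levels of markers of other cells were also compared between the genotypes in total cells. Effector and memory genes had a summed level of 123 and 128 in uMT, 98.1 to 117 in AID KO and 103 to 115 in WT, and 1 of 14 passed, lower in AID KO (limma, adjusted p = 0.0257). Naive T cell genes had a summed level of 583 and 635 in uMT, 466 to 519 in AID KO and 449 to 565 in WT. They were higher in uMT in 6 of 10 (median 0.18) and lower in AID KO in 7 of 10 (median -0.01). Neutrophil genes were lower in 5 of 5 in both AID KO (median -0.34) and uMT (median -0.31). In both of these lists 0 genes passed in either comparison. B cell genes were higher in AID KO in 8 of 8 (median 0.34) and lower in uMT in 7 of 8 (median -0.43), with summed levels of 4.52 to 5.42 in WT, 6.61 to 7.16 in AID KO and 5.20 to 6.00 in uMT. NK cell genes were lower in AID KO in 4 of 7 (median -0.04) and higher in uMT in 5 of 7 (median 0.38), with summed levels of 79.7 to 90.1 in WT, 76.3 to 85.1 in AID KO and 75.5 to 77.7 in uMT. Erythroid genes were lower in AID KO in 6 of 6 (median -0.22) and higher in uMT in 3 of 6 (median 0.80), with summed levels of 57.4 to 68.1, 49.9 to 61.5 and 57.3 to 59.9. Summed levels follow the brightest genes of a list, so a sum and a median can differ in sign. No gene of these last 3 lists passed in either comparison. The part of these markers in the genotype differences of the cell cycle genes was not tested.

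**Figure D4:**
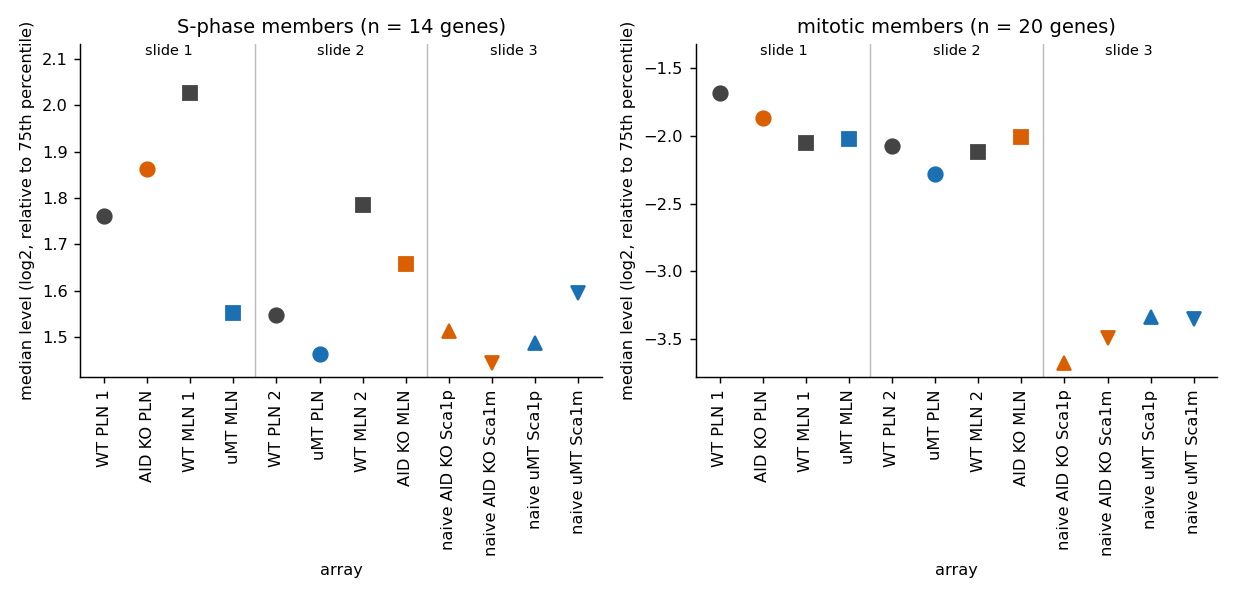
Median level of the 14 S-phase and of the 20 mitotic members on each of the 12 arrays (log2 processed intensity minus the array's 75th percentile), by slide. The naive mitotic medians include the 9 genes not well above background there. Mitotic medians lie between -2.28 and -1.69 in total cells and between -3.68 and -3.33 in naive cells, and S-phase medians between 1.46 and 2.03 and between 1.44 and 1.60.

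The nodes were compared within total cells. MLN was above PLN in 7 of 14 S-phase and 5 of 20 mitotic members, with medians of 0.0035 and -0.05 beside -0.015 over all features. In this comparison 0 of 34 members passed and 0 had an unadjusted p under 0.05, beside 0.105% and 9.13% of features. The largest differences were -0.26 ± 0.15 for Cenpf (adjusted p = 0.705), -0.22 ± 0.12 for Ccnb1 (adjusted p = 0.683) and -0.18 ± 0.16 for Nusap1 (adjusted p = 0.833) among mitotic members, and 0.15 ± 0.09 for Ccne1 (adjusted p = 0.68), 0.10 ± 0.11 for Pcna (adjusted p = 0.86) and -0.10 ± 0.10 for Cdc6 (adjusted p = 0.849) among S-phase members well above background on all total-cell arrays. Without the uMT MLN or the uMT PLN array the Cdc6 difference was 0.009. In the 4 MLN and PLN pairs of 1 genotype, Ccnb1 and Cenpf were lower in MLN each time, 2 of 20 mitotic members beside 7.65% of features. No member was higher in MLN in all 4 pairs, beside 5.51% of features. These counts leave slide out of account, since the AID KO and uMT pairs cross the slides in opposite directions, with mitotic medians of -0.38 and 0.23.

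Whether the knockouts differed from WT by another amount in MLN than in PLN was tested with an interaction term. No member passed (0 of 34, beside 0% of features, with 0 of 34 and 4.29% at an unadjusted p under 0.05), and the median was -0.12 for S-phase and 0.0039 for mitotic members. Among members well above background on all total-cell arrays, the largest terms were those of Bub1 at 0.63 ± 0.30, Tpx2 at -0.38 ± 0.22 and Ube2c at 0.31 ± 0.70, and Rrm2 at 0.37 ± 0.16, Mcm5 at -0.31 ± 0.14 and Mcm2 at -0.31 ± 0.16, all with an adjusted p of 0.999. The S-phase median became 0.070 without either uMT array and -0.304 without either AID KO array.

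Within naive cells the Sca1p and Sca1m fractions were compared, over the 13 S-phase and 11 mitotic members well above background on all 4 naive arrays. Sca1p lay below Sca1m in 6 of 13 S-phase and 9 of 11 mitotic members, with medians of 0.0081 and -0.11 beside 0.0024 over all features. The number that passed was 0 of 24, beside 0.0155% of all features, dim ones included. At an unadjusted p under 0.05 there were 2 of 24, beside 8.37% of all features. Birc5 was at -1.91 (Sca1p) and -1.16 (Sca1m) in AID KO and at -1.55 and -1.14 in uMT, so it was lower in Sca1p cells of both genotypes, by -0.58 ± 0.14 in the fit (adjusted p = 0.34). Tyms differed by -0.27 ± 0.11 (adjusted p = 0.572) and Rrm2 by -0.34 ± 0.15 (adjusted p = 0.624), again with both genotypes lower, and Tk1 by 0.19 ± 0.11 (adjusted p = 0.721) with both higher.

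The fractions of the 2 genotypes did not move together in every gene. Mki67 was higher in Sca1p than in Sca1m cells by 0.14 in AID KO and lower by -0.64 in uMT, which gave a fitted Sca1p difference of -0.25 ± 0.19 (adjusted p = 0.798) that became 0.14 without either uMT array. Plk1 differed by -0.19 ± 0.14 (adjusted p = 0.797), and by 0.009 without either AID KO array. Sca1p was lower in both genotypes in 5 of 13 S-phase members (Mcm2, Mcm5, Mcm7, Rrm2 and Tyms). The same held for 4 of 11 mitotic members (Top2a, Ccnb2, Birc5 and Aurka), beside 25.7% of features well above background on every naive array. Sca1p was higher in both in 2 of 13 (Tk1 and Cdc6) and 1 of 11 (Cenpe), beside 24.4% of these features.

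The interaction of fraction and genotype passed in 0 of 24 members, beside 0.0899% of all features. At an unadjusted p under 0.05 there were 4 of 24, beside 11.5% of all features. The medians were -0.13 (S-phase) and -0.09 (mitotic) beside -0.08 over all features. With this term the 4 naive arrays leave no residual degrees of freedom of their own, so the spread in the test comes from the total-cell arrays. The largest terms were -0.63 ± 0.19 for Pcna (adjusted p = 0.312), 0.83 ± 0.27 for Hmmr (adjusted p = 0.356), -0.78 ± 0.21 for Mki67 (adjusted p = 0.278) and 0.69 ± 0.20 for Ccnb1 (adjusted p = 0.299). E2f1 and Ccne1 had terms of -0.35 ± 0.36 and -0.24 ± 0.23 (adjusted p = 0.838 and 0.826).

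Naive uMT cells were compared with naive AID KO cells across both fractions. uMT was higher in 9 of 13 S-phase and 9 of 11 mitotic members, with medians of 0.10 and 0.12 beside 0.016 over all features. By fraction, and over all 14 and 20 tested members, the medians were -0.06 and -0.05 in Sca1p and 0.16 and 0.10 in Sca1m. The number that passed was 0 of 24, beside 0.35% of all features, dim ones included. At an unadjusted p under 0.05 there were 2 of 24, beside 8.91% of all features. Tk1 was at -3.01 and -3.25 in uMT (Sca1p and Sca1m) and at -3.47 and -3.61 in AID KO, so both uMT arrays were higher, by 0.41 ± 0.11 (adjusted p = 0.293). Cdc6 was higher by 0.35 ± 0.14 (adjusted p = 0.549), at -1.47 and -1.62 against -1.87 and -1.94. Ccnb1 differed by 0.38 ± 0.17 (adjusted p = 0.616), Hmmr by 0.31 ± 0.21 (adjusted p = 0.845), Ccnb2 by 0.21 ± 0.11 (adjusted p = 0.687) and Rrm2 by 0.16 ± 0.15 (adjusted p = 0.925). Without either Sca1p array the Hmmr difference was -0.108, and without either Sca1m array the medians over all 14 and 20 genes were -0.063 and -0.050. uMT was higher in both fractions in 5 of 13 and 5 of 11 members, beside 24.7% of features well above background on every naive array. It was lower in both in 1 of 13 (Mcm5) and 0 of 11, beside 20.4% of these features. Whether the uMT and AID KO difference itself differed between total and naive cells was not tested, since the 2 populations are on different slides.

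**Figure D5:**
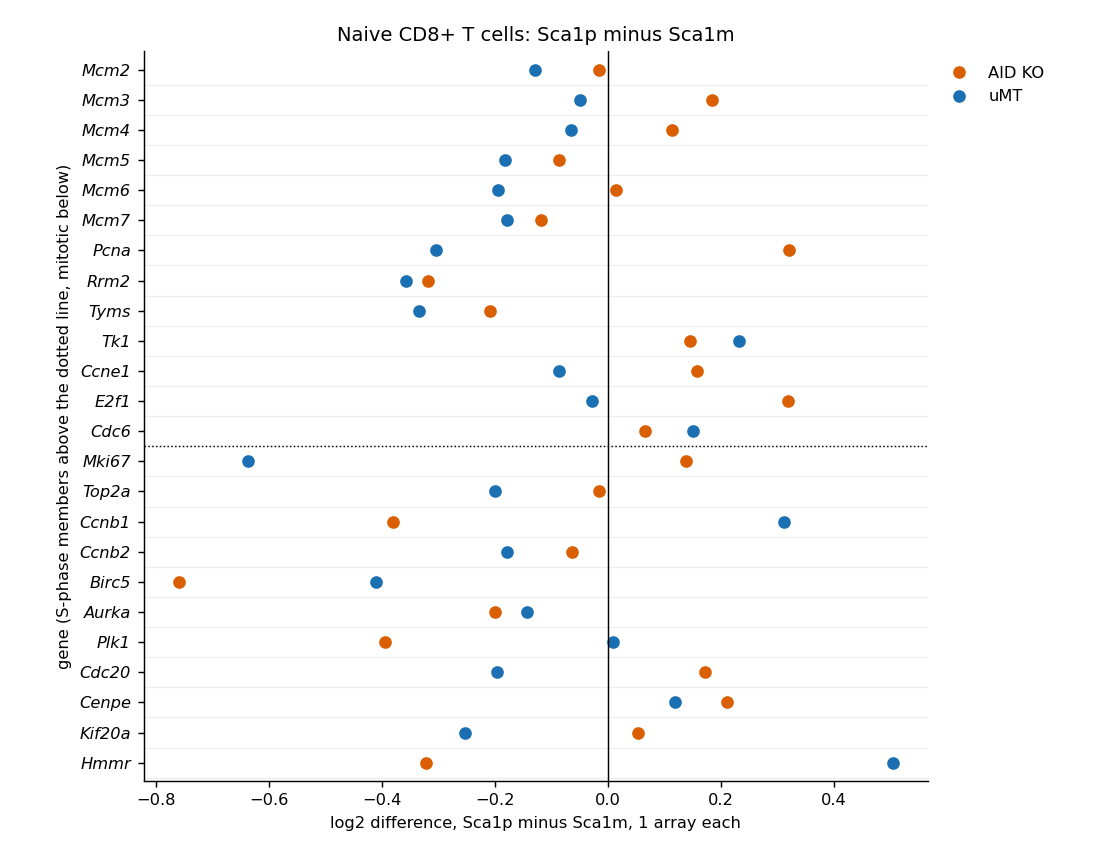
Sca1p minus Sca1m difference (log2) in AID KO (orange) and in uMT (blue) naive cells, 1 array against 1, for the members well above background on all 4 naive arrays. Birc5 lies left of 0 in both genotypes, while Mki67 lies right of 0 in AID KO (0.14) and left of it in uMT (-0.64).

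Among the other genes of the pathway a few passed where no member did. Orc1, the largest subunit of the origin recognition complex, was at -2.99 and -3.12 in WT PLN, at -3.10 and -3.11 in WT MLN, at -3.87 and -4.36 in AID KO and at -4.16 and -4.06 in uMT. All 4 knockout arrays lay below all WT arrays. The difference was -1.04 ± 0.13 in AID KO (adjusted p = 0.0388) and -1.03 ± 0.13 in uMT, which did not pass (adjusted p = 0.0852). In naive cells Orc1 was not well above background in AID KO and was at least 1.67-fold higher in uMT (adjusted p = 0.0393). Cdkn1c, an inhibitor of cyclin-dependent kinases, was at -2.58 and -2.96 in WT PLN, at -2.27 and -2.38 in WT MLN and at -3.62 and -3.35 in AID KO, a difference of -0.94 ± 0.13 (adjusted p = 0.0481). It was at -2.36 and -2.10 in uMT, the latter above all WT values.

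By list, 1 of 39 other replication genes (Orc1) and 1 of 18 brakes (Cdkn1c) fell in arrays labelled AID KO, and 0 of 41 other mitotic genes and 0 of 12 drivers of G1 passed by limma, beside 0.894% of features. An unadjusted p under 0.05 was found for 5 other mitotic genes and 4 drivers, beside 14.4% of features. In uMT against WT 0 genes of these 4 lists passed by limma, beside 0.035% of features, where 5 other replication genes, 8 other mitotic genes, 1 driver and 3 brakes had an unadjusted p under 0.05, beside 17.8% of features. There Btg2, an antiproliferative gene, differed by 0.55 ± 0.08 (adjusted p = 0.0998) and Cdca8, of the passenger complex, by -0.43 ± 0.09 (adjusted p = 0.146). Between uMT and AID KO the cyclin-dependent kinase partner Cks2 differed by 0.87 ± 0.13 (adjusted p = 0.0729) and Cdkn1c by 1.25 ± 0.15 (adjusted p = 0.0524). None of the 4 lists had a gene that passed between uMT and AID KO total cells, between the nodes, in the node interaction or between the Sca-1 fractions. In naive cells Nuf2, a kinetochore gene, passed between uMT and AID KO (adjusted p = 0.032) but was not well above background on any naive array, so no fold is given. The Nuf2 call was lost without any 1 of the 12 arrays. The calls of Orc1 and Cdkn1c in AID KO held in 6 of 21 and 3 of 22 alternative analyses, with adjusted p between 0.0433 and 0.374 and between 0.0157 and 0.534. Orc1 lost its call without any 1 of the 8 total-cell arrays and with the matched block, and Cdkn1c without any 1 of the 12 arrays and with that block. The Orc1 call in naive cells held in 2 of 18 alternatives, with adjusted p between 0.0338 and 0.793, and was lost without any 1 of the 12 arrays.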

How the data were processed

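Per the file headers, the deposited scanner files hold the intensity of each spot, extracted with Agilent Feature Extraction 11.0.1.1 (also named per the submitters' processing notes), together with other values, namely deposited flags for spots well above background, saturated or outlying. The processed intensity was already subtracted for background and not normalized between arrays. The authors' deposited series matrix of log2 values was used as an alternative only, since its columns share their sorted values within each slide.

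For the results, the 75th percentile of its log2 processed intensities was subtracted from each array, and 61 to 342 outlier spots an array were left out. Probes well above background on at least 2 of 12 arrays were kept and named through the accession on the array and the RefSeq table of GRCm38.p6. A single gene symbol was found for 32994 of 56605 probes, several for 0 and none for 23611. Other lists and cell type markers were treated alike.

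Limma 3.58.1 (R 4.3.3) was fitted over all 12 arrays with the terms node, slide, AID KO and uMT for the total cells, while naive cells had an intercept of their own, uMT and Sca1p. This left 4 residual degrees of freedom, or 3 with an interaction term. Naive arrays thus also enter the spread of total-cell tests, including those of genes not well above background on naive arrays. The moderated tests were two-sided, p-values were adjusted by Benjamini-Hochberg across all features tested, and values after ± are standard errors. The script was tested on simulated data. The number of arrays limits the precision.

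The members, lists and rules were chosen with earlier results of these data known. In each comparison the text names members that passed and the 3 S-phase and 3 mitotic members with the largest difference among those well above background on every array of that population, and from each other list those that passed or, if none did, the gene with the lowest p. Alternatives were normexp background correction (on the median signal, since the scanner files used here hold no mean signal), quantile or median scaling, the series matrix, other filters on dim probes, the mean of all probes, no slide term, a block of matched arrays, only the compared population, and each array left out. Values of the genes targeted by the knockouts and of some marker genes are not reported here.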

Additional observations from a re-analysis of the deposited data

Results flagged for a closer look

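Espl1, which encodes separase, the protease that parts sister chromatids, belongs to the other mitotic genes and was the only gene of the cell cycle lists that passed the test of whether the Sca1p difference itself differed between the genotypes. In naive AID KO cells it was at -3.15 in Sca1p and -5.06 in Sca1m, and in naive uMT cells at -5.97 in Sca1p and -4.70 in Sca1m. The interaction term was -3.19 ± 0.24 (limma, adjusted p = 0.0458). Only the Sca1p array of AID KO was well above background, so the term is no fold and its size depends on 3 dim values. With the term the 4 naive arrays leave no residual degrees of freedom, so the spread in the test comes from the total-cell arrays. It passed in 3 of 13 alternatives, with adjusted p from 0.0221 to 0.525, and in 0 of the 8 that left out 1 total-cell array (0.0768 to 0.158). The part of signal near background in this term was not tested.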

How the results depend on the processing

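In 163 of 164 alternatives over the 8 comparisons, 0 members passed. The exception was Cdc6, higher in naive uMT than AID KO cells by 0.86 with the mean of all kept probes (1 of 34 members called, adjusted p = 0.0496, against 0.0496 to 0.981 over its alternatives). Medians here cover all 14 or 20 tested members, also in naive cells. Leaving out 1 array, the S-phase median ranged from -0.289 (without uMT PLN) to 0.019 (without uMT MLN) for uMT against AID KO in total cells, from -0.304 to 0.070 for the node interaction from -0.063 to 0.162 for naive uMT against AID KO, from -0.116 to 0.079 for Sca1p against Sca1m and from -0.012 to 0.049 for MLN against PLN. The mitotic median ranged from -0.050 to 0.119 for naive uMT against AID KO and from -0.079 to 0.110 for the node interaction. All 7 medians changed sign.

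Directions of single genes turned in 11 cases. Hmmr in AID KO against WT became 0.110 and Ccnd2 in uMT against AID KO -0.043 with the mean of all probes. Leaving out 1 array, E2f1 in uMT against AID KO ranged from -0.530 to 0.138 (without uMT MLN), Cdc6 in MLN against PLN from -0.196 to 0.009 (without either uMT array), Mki67 in Sca1p against Sca1m from -0.638 to 0.138 (without either uMT array), Plk1 from -0.394 to 0.009 (without either AID KO array), and Hmmr in naive uMT against AID KO from -0.108 (without either Sca1p array) to 0.719. The causes were not tested.

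The counts of members higher in total than naive cells, an alternative added after the data were seen, were 5 of 14 and 14 of 20 with normexp, 9 and 18 with quantile scaling, 7 to 8 and 18 to 18 without 1 array, and 7 of 13 and 9 of the 11 genes with values in the series matrix. Counts of features past the threshold moved more. Over settings other than leaving out an array they were 15 to 582 for AID KO against WT (230 as reported), 0 to 91 for uMT against WT (9), 1 to 188 for uMT against AID KO (81), 16 to 73 for MLN against PLN (27), 0 to 23 for the node interaction (0), 0 to 22 for Sca1p against Sca1m (4), 0 to 115 for naive uMT against AID KO (90) and 14 to 718 for the Sca-1 interaction (23). Without 1 array they were 1 to 163, 0 to 9, 1 to 37, 2 to 24, 0 to 0, 0 to 173, 25 to 213 and 0 to 2. The matched pair block, read as a replicate block, was possible for genotypes in total cells only and called 0 members. The Sca-1 by genotype interaction could not be fitted without a naive array or on naive arrays alone, for lack of residual degrees of freedom. Dim probes limit what can be said of the 9 mitotic members that are near background in naive cells.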
